A study of Mus musculus with 2 samples.

Results

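A set of 49 genes of the cell division cycle were followed through the cell types of a mouse malignant pleural effusion, the fluid that gathers around the lung when tumour cells grow in the pleural cavity. The genes were taken by symbol from a fixed list, and all 49 were among the 27998 genes listed in both libraries. By role they comprise 13 genes of S phase, when DNA is copied, 23 genes of G2 and mitosis (G2/M), 9 genes used in several phases and 4 cyclins of G1. The samples form 1 group of 2 droplet single-cell libraries, called library 1 and library 2. Both were sorted for living CD45+ CD11b+ cells of the effusion, taken 10 days after 150000 cells of LLC, the Lewis lung carcinoma line of mice, were injected into the pleural cavity in 100 µl of PBS. No tumour-free group was analysed here, and the labels give neither strain, age and sex nor whether the libraries came from separate animals. The p-values below therefore measure how far differences between cell classes varied between these libraries, a spread that may be technical. A general difference between the libraries is taken out by the model.

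A dividing cell makes the products of its cycle genes in order. Rising G1 cyclins (Ccnd1, Ccnd2, Ccne1, Ccne2) activate kinases that release E2F factors, which switch on the S-phase genes: the Mcm2 to Mcm7 helicase that opens DNA, Gins2 of the same helicase, the sliding clamp Pcna, and the enzymes that supply nucleotides (Tyms, Rrm1, Rrm2, Tk1, Dut). Later, separate factors that bind CHR and CCAAT elements switch on the G2/M genes: cyclins (Ccna2, Ccnb1, Ccnb2) with their kinase Cdk1, the spindle and centromere proteins (Cenpa, Cenpe, Cenpf, Nusap1, Tpx2, Kif11), mitotic kinases (Plk1, Aurka, Aurkb, Bub1) and the machinery that ends mitosis (Cdc20, Ube2c). Neutrophils leave the cycle before they enter blood, whereas resident macrophages of body cavities can renew themselves by division.

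Many members carry the elements named above in their promoters, and 6 promoters that do are shown because the results turn on their genes. RefSeq promoter windows on GRCm38.p6 (250 bases before to 50 after each start site) were matched for 38 of the 49 members, 2 of them under a newer symbol. On either strand, CHR (TTTGAA) occurred in 13 of 18 G2/M windows (72.2%) and 1 of 12 S-phase windows (8.33%), against 17.9% of all 32851 windows. An E2F element (TTTCCCGC or TTTGGCGC) occurred in 4 of 12 S-phase windows (33.3%) and 0 of 18 G2/M windows, against 1.56% of all windows. CCAAT occurred in 16 of 18 G2/M windows (88.9%) and 9 of 12 S-phase windows (75%), against 37.4% of all. The windows of Birc5, Nusap1, Dut, Tk1, Tyms, Ccne1 and Tuba1b held none of these letters. With the 250 bases before the start site alone, the CHR share of G2/M windows was 38.9%, against 16% of all. A match describes the letters and is no measured binding site. The stretches below run 5′ to 3′ on the gene's strand and stop before the first annotated exon; capitals mark CHR, E2F and CCAAT matches or their reverse complements, none of which overlap. They lie at chr9:70421555-70421804 (Ccnb2, minus strand), chr4:118437353-118437593 (Cdc20, minus), chr7:135716380-135716629 (Mki67, minus), chr11:99024190-99024439 (Top2a, minus), chr8:75109259-75109508 (Mcm5, plus) and chr1:128359706-128359955 (Mcm6, minus).
Ccnb2: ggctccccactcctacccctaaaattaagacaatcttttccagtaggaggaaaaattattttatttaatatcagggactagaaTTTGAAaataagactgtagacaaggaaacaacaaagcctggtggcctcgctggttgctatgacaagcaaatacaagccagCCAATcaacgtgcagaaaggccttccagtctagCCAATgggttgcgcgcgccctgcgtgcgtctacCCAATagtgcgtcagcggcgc
Cdc20: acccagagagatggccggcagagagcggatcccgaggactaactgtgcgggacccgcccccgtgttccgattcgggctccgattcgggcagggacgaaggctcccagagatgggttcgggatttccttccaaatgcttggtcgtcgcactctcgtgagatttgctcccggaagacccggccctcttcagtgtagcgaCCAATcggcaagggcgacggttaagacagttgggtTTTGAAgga
Mki67: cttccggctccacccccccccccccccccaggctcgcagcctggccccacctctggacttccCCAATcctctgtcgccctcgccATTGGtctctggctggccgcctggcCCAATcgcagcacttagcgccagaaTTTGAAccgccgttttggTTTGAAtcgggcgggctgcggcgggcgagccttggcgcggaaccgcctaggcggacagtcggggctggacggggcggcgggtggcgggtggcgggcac
Top2a: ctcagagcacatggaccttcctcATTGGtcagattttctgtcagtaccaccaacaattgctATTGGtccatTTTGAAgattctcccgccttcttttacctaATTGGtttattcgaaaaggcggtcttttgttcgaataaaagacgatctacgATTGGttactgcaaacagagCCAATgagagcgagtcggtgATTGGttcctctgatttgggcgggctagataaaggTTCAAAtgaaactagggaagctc
Mcm5: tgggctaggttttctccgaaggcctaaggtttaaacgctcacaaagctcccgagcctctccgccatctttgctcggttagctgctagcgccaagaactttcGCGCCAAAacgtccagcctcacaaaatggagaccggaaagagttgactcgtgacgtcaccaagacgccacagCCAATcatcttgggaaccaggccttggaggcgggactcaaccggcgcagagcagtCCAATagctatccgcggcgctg
Mcm6: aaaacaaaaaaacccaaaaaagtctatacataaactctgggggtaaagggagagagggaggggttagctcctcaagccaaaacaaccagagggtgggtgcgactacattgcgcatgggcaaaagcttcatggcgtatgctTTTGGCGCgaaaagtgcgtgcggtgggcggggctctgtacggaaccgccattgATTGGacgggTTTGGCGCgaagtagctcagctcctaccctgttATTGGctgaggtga
The Cdc20 stretch held CHR 13 to 18 bases before the start site, and the Ccnb2 stretch held CHR 162 to 167 bases before it with 3 CCAAT boxes nearer the start. Mki67 carried 2 CHR matches, and Mcm6 carried 2 copies of TTTGGCGC. Of the G2/M members shown, Top2a behaved unlike the other 3 in resident macrophages, as described below, although its window held CHR on both strands and 6 CCAAT matches.

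UMIs, the unique molecules counted, totalled 11543829 over 1141 barcodes of library 1 and 20322996 over 2908 barcodes of library 2, with medians of 9894 and 1954.5 for each barcode. After quality filters 1106 and 2782 cells remained, and 4 barcodes occurred in both libraries. Cells were assigned to 9 classes by marker genes, none of which is a cell cycle member. CD45 transcripts (Ptprc) were found in 70.3% and 73.3% of cells and CD11b transcripts (Itgam) in 10.5% and 12.9%. Itgam was found in 1 of 37 T or NK cells, and epithelial or tumour markers were at 0 in the resident macrophage, dendritic and T or NK classes. Antibody tags BC2 and BC3 were counted in library 2 and divided its classes unevenly; their meaning is not given in the labels.

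Cycling cells were rare in the effusion as a whole and concentrated in few classes. A cell was called cycling when it kept at least 3 UMIs of the 36 S and G2/M members after its counts were thinned to 1000 UMIs, which puts shallow and deep cells on one footing. By this measure 14 of 1106 cells (1.27%, exact 95% interval 0.694 to 2.11%) cycled in library 1 and 28 of 2362 (1.19%, 0.789 to 1.71%) in library 2. Another 420 shallower cells of library 2 could not be scored. Thinning was 1 random draw per cell, so a cell rich in these UMIs can go uncalled. Intervals cover counting error only, and cells of 1 library are not replicates.

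Among resident pleural macrophages, marked by Prg4, Alox15, Gata6 and other genes, 6 of 29 cells cycled in library 1 (20.7%, 7.99 to 39.7%) and 3 of 22 in library 2 (13.6%, 2.91 to 34.9%). C1q macrophages, the larger population marked by C1qa, Folr2 and Cd163, cycled in 3 of 261 cells (1.15%, 0.238 to 3.32%) and 1 of 128 (0.781%, 0.0198 to 4.28%). The intervals of these classes were apart in library 1 and overlapped in library 2. Dendritic cells gave 3 of 137 (2.19%, 0.454 to 6.27%) and 3 of 36 (8.33%, 1.75 to 22.5%). The T or NK class of library 2 had the highest share, 11 of 37 cells (29.7%, 15.9 to 47%). Neutrophils set the background of the measure, with 0 of 80 cells, which allows a share of up to 3.75% by the limit of 3 cells of the total and 4.51% by the exact interval, and 1 of 1121 (0.0892%, 0.00226 to 0.496%). Monocytes gave 0 of 351, which allows up to 0.855% (exact 1.05%), and 1 of 480 (0.208%). No B cell of 27 and of 13 was called, which allows shares of up to 11.1% and 23.1% (exact 12.8% and 24.7%).

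**Figure D1:**
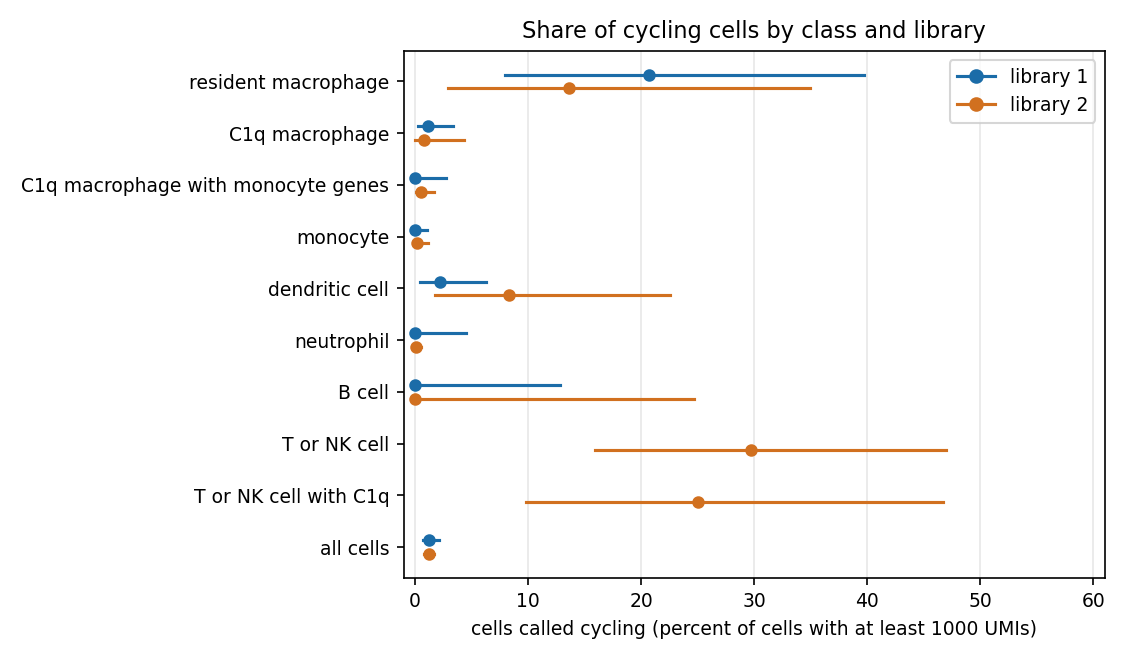
Share of cycling cells (horizontal axis, percent of cells with at least 1000 UMIs) for each marker-gated class and library; points are shares and lines exact 95% intervals. Resident macrophages (20.7% and 13.6%) and T or NK cells (29.7%, library 2) stand to the right of C1q macrophages, monocytes and neutrophils, none of which exceeds 1.15%.

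The unthinned counts gave higher shares in the deeper classes: 16 of 29 and 18 of 22 resident macrophages, 31% and 30.7% of C1q macrophages, and 1 of 1453 neutrophils in library 2. Median depth was 10908 and 20080 UMIs in resident macrophages and 1467 in the scored neutrophils of library 2. A G2/M UMI alone remained after thinning in 11 of 29 (37.9%) and 6 of 22 (27.3%) resident macrophages, against 2.5% and 3.12% of neutrophils. An S-phase UMI remained in 20.7% and 13.6% of resident macrophages, 13% and 10.2% of C1q macrophages and 2.5% and 4.37% of neutrophils. The G2/M shares of resident macrophages lay above those of C1q macrophages (4.98% and 3.12%), while the S-phase shares had overlapping intervals.

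Summed over each class, S-phase and G2/M genes followed different orders. S-phase genes reached 206 and 149 CPM (UMIs of the genes per 1000000 UMIs of the class; libraries 1 and 2) in resident macrophages, close to the 183 and 161 CPM of C1q macrophages. Dendritic cells stood above both with 232 and 483 CPM. C1q macrophages with monocyte genes had 112 and 108 CPM, monocytes 88.8 and 99.1 CPM, and neutrophils 24.2 and 45.2 CPM. G2/M genes reached 1108 and 589 CPM in resident macrophages (849 ± 367, SD, n = 2) against 164 and 64.9 CPM in C1q macrophages (115 ± 70.2). Dendritic cells had 153 and 488 CPM, just below C1q macrophages in library 1 and between the macrophage classes in library 2. The lowest G2/M levels, 24.2 and 30.9 CPM, were those of neutrophils, next to 29.2 and 39.1 CPM in monocytes. C1q macrophages with monocyte genes had 33.9 and 73.3 CPM, which overlapped the levels of monocytes and of C1q macrophages. In sums of this kind, fewer cycling cells and less RNA per cycling cell cannot be told apart.

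The balance between phases set resident macrophages apart from C1q macrophages, dendritic cells and monocytes in both libraries. G2/M genes supplied 84.3% (80.4 to 87.7%) and 79.8% (75.3 to 83.9%) of the S and G2/M UMIs of resident macrophages. In C1q macrophages they supplied 47.3% and 28.7%, in dendritic cells 39.7% and 50.3%, and in monocytes 24.7% and 28.3%. The T or NK cells of library 2 came closer to resident macrophages, with 62.1% (60 to 64.3%). The 24 cells of library 2 that passed both the T or NK and the C1q gate had 71.2% (68.6 to 73.7%). These intervals take UMIs as independent, although 2 cells held 69.4% of the resident G2/M UMIs of library 2. C1q macrophages and dendritic cells changed order between the libraries, and C1q macrophages and monocytes had overlapping intervals in library 2. Of the 23 G2/M members, 17 had their highest mean level in resident macrophages among the 6 classes sampled in both libraries, and the other 6 (Top2a, Aurkb, Nusap1, Cdk1, Aurka and Kif11) in dendritic cells. Of the 13 S-phase members, 10 were highest in dendritic cells, and only Dut, Rrm1 and Tyms in resident macrophages.

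**Figure D2:**
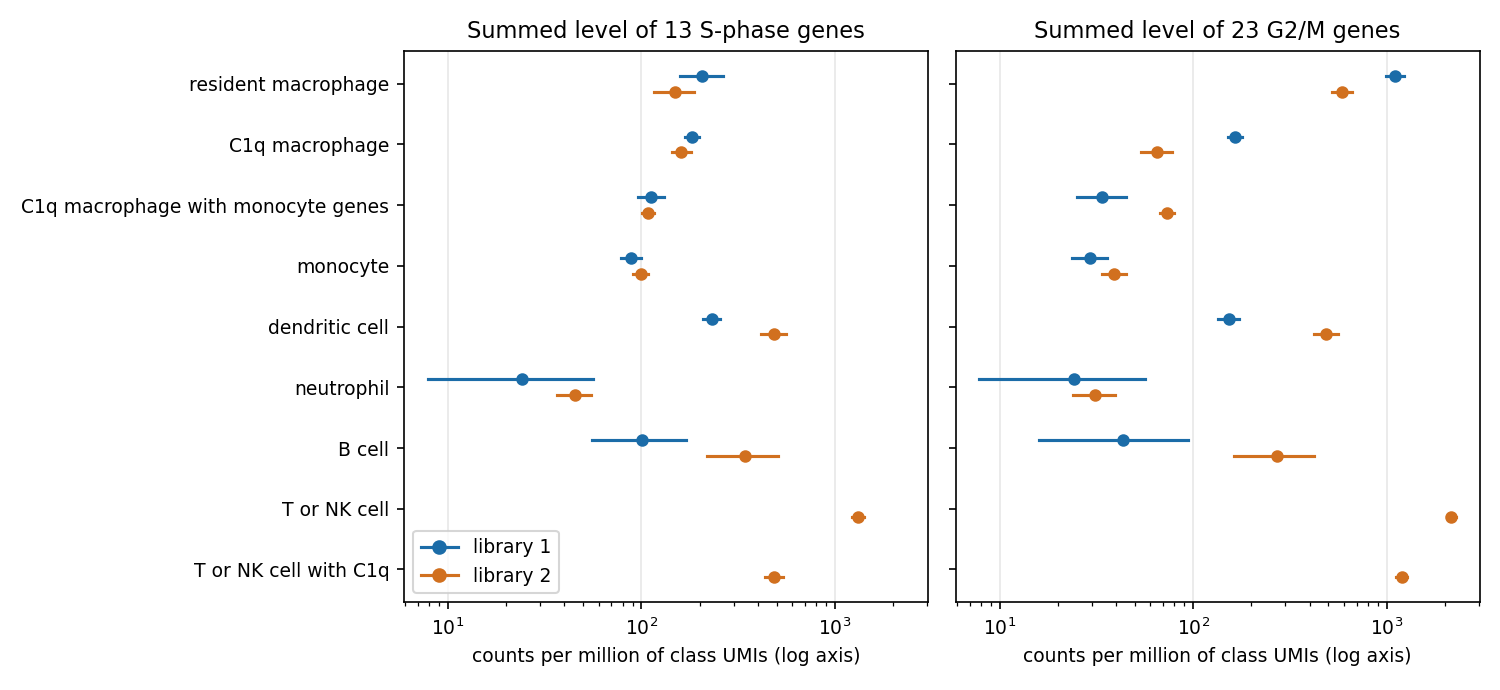
Summed level of the 13 S-phase genes (left) and 23 G2/M genes (right) in CPM, on a log axis, by class and library; lines are exact 95% Poisson intervals. Resident macrophages (1108 and 589 CPM) part from C1q macrophages (164 and 64.9 CPM) in the right panel and not in the left.

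**Figure D3:**
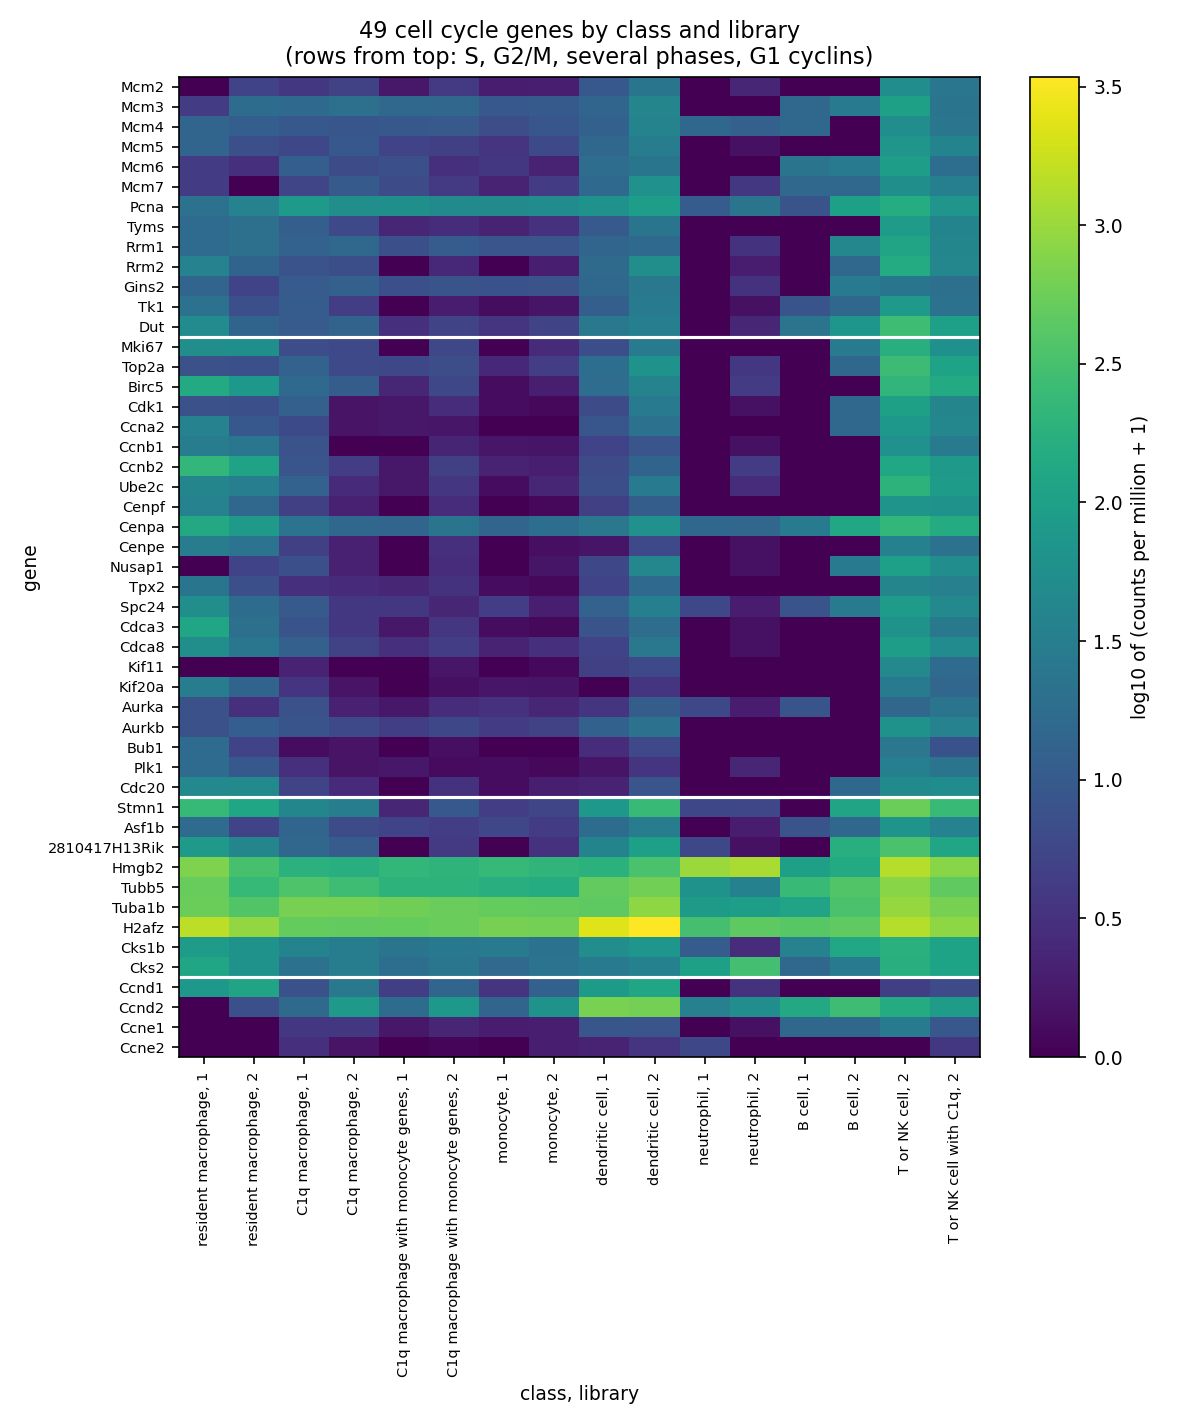
Level of each of the 49 genes (rows, grouped by role) in each class and library (columns), coloured by log10 of CPM plus 1. H2afz, Hmgb2, Tubb5 and Tuba1b are high in nearly every column, the G2/M block is bright in resident macrophages and T or NK cells, and Hmgb2 and Cks2 are bright in neutrophils.

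Resident macrophages carried more transcripts of mitotic genes than C1q macrophages, while no S-phase member passed the test upward. Of 46 members with enough UMIs to test, 21 were higher and 2 lower (edgeR adjusted p under 0.05), where 7.19% of all 9331 genes tested were higher and 4.23% lower. All 23 calls had the same sign in each library taken alone. By role, 14 of 21 G2/M members rose and none fell, 0 of 13 S-phase members rose and 1 fell, 6 of 9 genes of several phases rose, and the G1 cyclins split. The median log2 fold change was 2.67 for G2/M members and 0.39 for S-phase members, beside -0.05 for all genes. Bub1, Kif11 and Ccne2 had too few UMIs to test. Without the library as a block in the model 7 members were called.

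Ccnb2, a B-type cyclin of mitosis, led the rise. It stood at 216 and 109 CPM in resident macrophages and at 7.55 and 3.36 CPM in C1q macrophages, so both resident libraries were far above both others. The log2 fold change was 4.73 ± 0.39 (SE, n = 2; edgeR adjusted p = 1.2e-07). Ccnb2 UMIs came from 12 of 29 and 6 of 22 resident cells, against 6 of 261 and 3 of 137 C1q macrophages. Cdc20, the activator of the complex that ends metaphase, was at 45.8 and 48.2 CPM against 4.23 and 1.68 CPM (log2 fold change 3.72 ± 0.61, edgeR adjusted p = 0.000415). Birc5 (survivin, a chromosomal passenger protein) was at 144 and 75.5 CPM against 15.4 and 10.1 CPM (2.96 ± 0.38, edgeR adjusted p = 3.04e-05). Cenpa, the histone variant of centromeres, was at 137 and 81.8 CPM against 21.1 and 14.5 CPM (2.45 ± 0.35, edgeR adjusted p = 8.08e-05). In each of these 4 genes library 1 and library 2 gave the same order with no overlap.

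Mki67, the usual histological mark of cycling cells, was nearly equal in the resident libraries at 55.6 and 56.6 CPM, against 5.74 and 5.04 CPM in C1q macrophages (log2 fold change 3.16 ± 0.59, edgeR adjusted p = 0.00139). Cdca3, a trigger of mitotic entry, differed more between the resident libraries, at 118 and 18.9 CPM against 7.25 and 2.80 CPM (3.52 ± 0.59, edgeR adjusted p = 0.000405). Motor and kinetochore genes rose on few molecules. Kif20a, a kinesin of the dividing midzone, had 9 and 6 UMIs in resident macrophages (29.4 and 12.6 CPM against 2.42 and 0.56 CPM), Cenpe had 9 and 10 UMIs, Cenpf 11 and 7, and the kinase Plk1 5 and 4. Their log2 fold changes were 3.57 for Kif20a, 3.12 for Cenpe, 3.12 for Cenpf and 3.01 for Plk1. Ccnb1 (2.71 ± 0.75), Ccna2 (2.66 ± 0.80), Spc24 (2.47 ± 0.61) and Cdca8 (2.14 ± 0.61) completed the 14.

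Other G2/M members did not pass the test in resident macrophages. Top2a, the topoisomerase that untangles replicated DNA, was at 6.54 and 6.29 CPM, within the 12.1 and 5.04 CPM of C1q macrophages (log2 fold change -0.69 ± 0.91, edgeR adjusted p = 0.715). Cdk1 was at 6.54 and 6.29 CPM against 11.2 and 0.56 CPM, and Aurka, Aurkb and Nusap1 likewise overlapped between the classes. Ube2c (39.2 and 31.5 CPM against 12.1 and 1.68 CPM) and Tpx2 (22.9 and 6.29 CPM against 2.11 and 1.68 CPM) stood higher in both libraries but missed the threshold, with edgeR adjusted p = 0.0621 and 0.0503.

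Of the S-phase members, Pcna was lower in resident macrophages, at 19.6 and 35.7 CPM against 78.2 and 54.8 CPM (log2 fold change -1.22 ± 0.36, edgeR adjusted p = 0.0323). It missed the threshold without the 2 cells of each class and library that held most S and G2/M UMIs (-0.99, edgeR adjusted p = 0.0901). The helicase genes gave no call, with fold changes between -2.45 (Mcm7) and 0.41 (Mcm5) on the log2 scale from 0 to 8 UMIs per library. Dut was at 49 and 12.6 CPM against 9.36 and 12.3 CPM (1.33 ± 0.52, edgeR adjusted p = 0.12), higher by a log2 ratio of 2.41 in library 1 and of 0.11 in library 2. Rrm2 (36 and 12.6 CPM against 6.94 and 6.16 CPM) and Tyms (16.3 and 18.9 CPM against 10.9 and 5.04 CPM) were higher in both libraries without passing the test.

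The genes of several phases and the G1 cyclins added to the contrast. H2afz, a replacement histone, was at 1543 and 927 CPM against 499 and 480 CPM (1.31 ± 0.25, edgeR adjusted p = 0.00152), and the chromatin protein Hmgb2 at 699 and 323 CPM against 178 and 167 CPM (1.51 ± 0.29, edgeR adjusted p = 0.00168). Stmn1, 2810417H13Rik (a clamp-associated factor also named Pclaf), Cks2 and Cks1b rose as well, while the tubulin genes Tubb5 and Tuba1b and the histone chaperone Asf1b gave no call. Ccnd1 rose (75.2 and 115 CPM against 6.64 and 25.2 CPM, 2.66 ± 0.37, edgeR adjusted p = 6.32e-05) and was found in 8 of 29 and 12 of 22 resident cells. Ccnd2 moved the other way, with 0 and 3 UMIs in resident macrophages against 52 and 141 in C1q macrophages. Its pooled ratio was 9.87 (counting interval 3.33 to 48.3) in favour of C1q macrophages (edgeR adjusted p = 0.0472), and without the top 2 cells it missed the threshold at a similar fold change (-3.48 against -3.59, edgeR adjusted p = 0.0585).

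**Figure D4:**
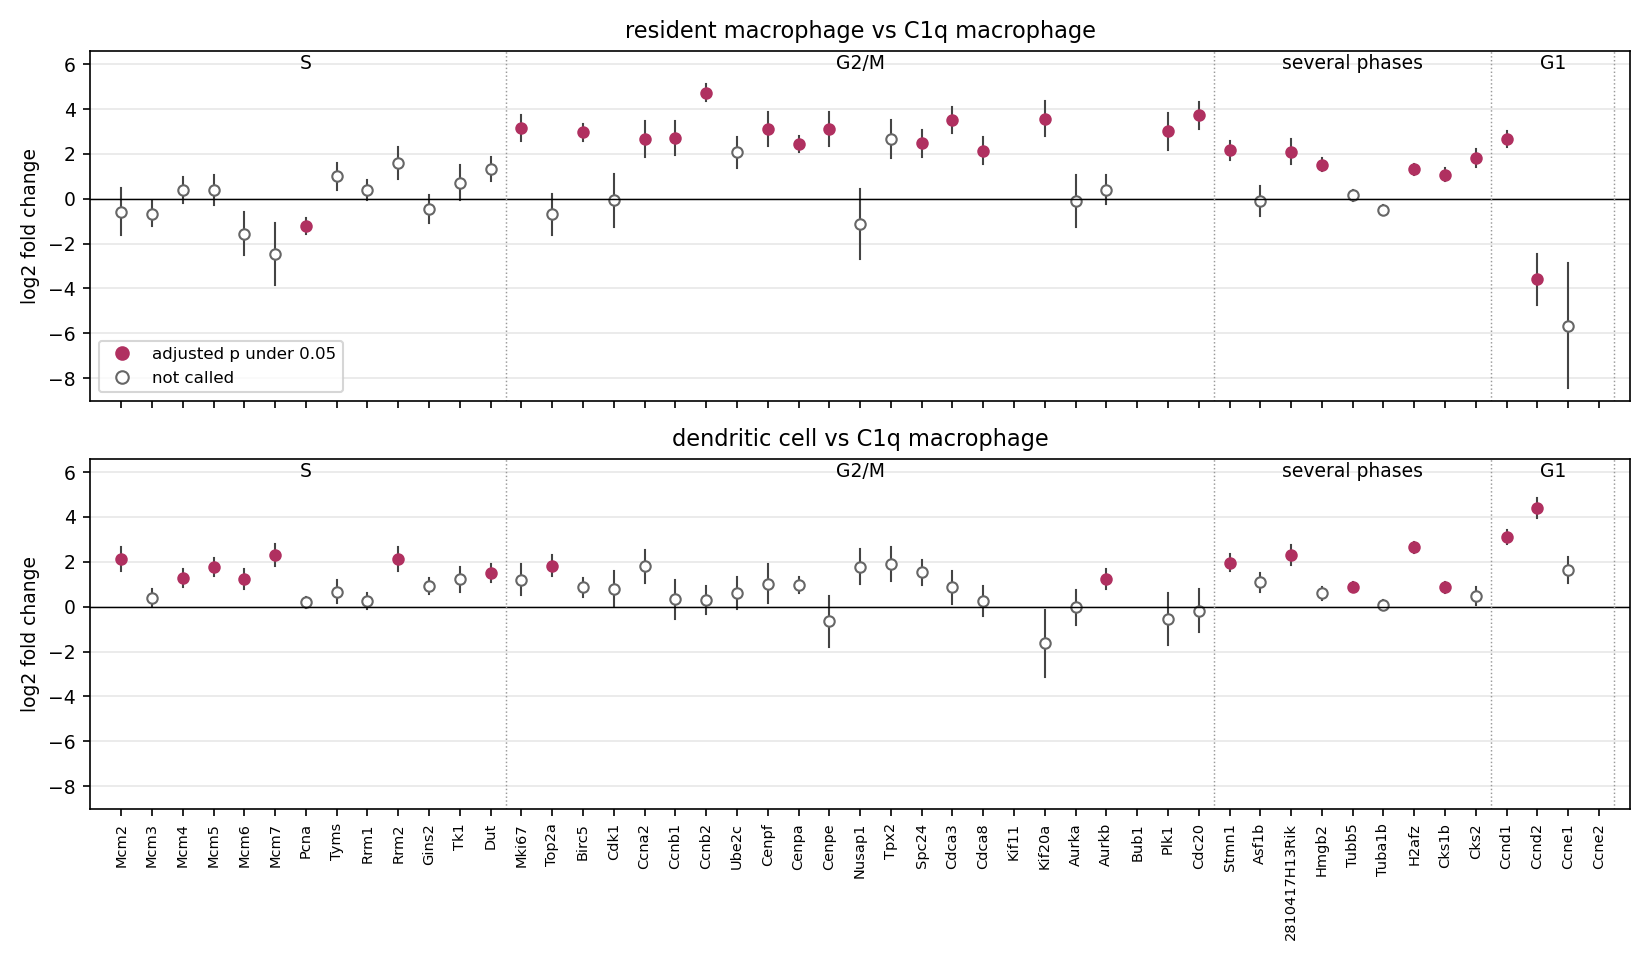
Log2 fold change of each tested member (horizontal axis, ordered by role) in resident macrophages (top) and dendritic cells (bottom) against C1q macrophages; lines are ± 1 SE and filled points passed adjusted p under 0.05. In the top panel 14 G2/M genes are filled and lie above 0, and in the bottom panel 7 S-phase genes are.

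Further cell cycle genes outside the member list gave the same division by phase. They were summed over the same cells as the members, so they are no independent support. Of 17 further mitosis genes tested, 10 rose in resident macrophages and none fell, with a median log2 fold change of 2.36. Among all genes tested 7.19% were higher and 4.23% lower. Of 9 further replication genes 0 rose and 0 fell, with a median of -0.28. Hmmr, a spindle protein, was at 26.1 and 14.7 CPM against 2.11 and 0 CPM (3.97 ± 0.84, edgeR adjusted p = 0.004), and the phosphatase gene Cdkn3 at 65.4 and 23.1 CPM against 5.13 and 1.68 CPM (3.48 ± 0.61, edgeR adjusted p = 0.000681). Cdc25c and Kif4 rested on 3 UMIs each in C1q macrophages, with a ratio of 19.5 (counting interval 4.88 to 112) for both. The 2 inhibitors called, named after their values were seen, were Btg1 (239 and 298 CPM against 623 and 652 CPM) and Cdkn1a (134 and 143 CPM against 375 and 226 CPM), lower with log2 fold changes of -1.28 and -1.11 (edgeR adjusted p = 0.00347 and 0.0146). No gene of the E2f, Rb and Cdk regulators passed the test, 0 of 11 tested. At an unadjusted p under 0.05 there were 0 of them, beside 2192 of all 9331 genes tested.

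The G2/M UMIs of resident macrophages came from a minority of cells. In library 1 the 2 richest cells held 165 of 339 G2/M UMIs (48.7%), and in library 2 they held 195 of 281 (69.4%). At full depth 21 of 29 and 15 of 22 resident cells had at least 1 G2/M UMI, with medians of 2 and 1 per cell. All 9 cycling resident cells had more G2/M than S UMIs after thinning. In library 1 they expressed 6 to 20 of the 23 G2/M members and 1 to 6 of the 13 S-phase members; in library 2 they expressed 11 to 20 and 2 to 4. The 3 cycling C1q macrophages of library 1 differed, with 20 to 22 G2/M members, 11 to 13 S-phase members and 49 to 70 S-phase UMIs. Their depths were 18830 to 44303 UMIs, against 4436 to 20591 UMIs in the cycling resident cells of library 1, and deeper cells can show more members. The 1 cycling C1q macrophage of library 2 expressed 10 G2/M and 4 S-phase members. A C1q macrophage of library 2 with 76 S-phase UMIs was not among the cells called after the random thinning. Nor was a resident macrophage of library 1 with 80 G2/M UMIs, so the cells described here are an incomplete set. In library 2 the 2 cycling C1q macrophages with monocyte genes expressed 17 to 22 and 3 to 6. The 2 richest C1q macrophages held 66.5% and 55.2% of their class's G2/M UMIs. With the top 2 cells of every class and library left out, 14 members were called, 12 of them among the 23. These 12 included Ccnb2 (6.25, edgeR adjusted p = 1.52e-07), Birc5, Cenpa, Mki67, Cdca3, Spc24, Cdc20 and Ccnd1. The calls lost were Ccnb1 (2.67, edgeR adjusted p = 0.132), Cks1b (0.76, edgeR adjusted p = 0.157), Cks2 (1.10, edgeR adjusted p = 0.184), Pcna and Ccnd2. Ccna2, Cenpf, Cenpe, Cdca8, Kif20a and Plk1 were then not tested. The cells left out were picked by the UMIs under test, and 2 cells are a larger part of a small class. Mean G2/M levels fell from 849 to 420 CPM in resident and from 115 to 43.1 CPM in C1q macrophages. Calls kept or lost this way therefore cannot show how robust the difference is.

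The further mitosis genes, which did not enter the call, were also higher in the cycling resident cells, at 1191 CPM against 287 CPM in the remaining resident cells of library 1 and at 2215 against 132 CPM in library 2. Further replication genes gave 68.1 against 105 CPM on 4 UMIs in library 1 and 258 against 81.3 CPM in library 2. The gates themselves required resident markers (12404 against 15376 CPM and 14193 against 16381 CPM) and limited those of T and NK, dendritic and B cells (0 in all 9 cycling cells), so these levels support nothing. Neutrophil markers were higher in them, at 6806 against 1752 CPM in library 1 and 2236 against 1020 CPM in library 2, and their part in the result was not tested. The cycling cells were shallower than the others, with median depths of 5405 against 11523 UMIs and 16827 against 21284 UMIs. In library 2 all 3 lay on the BC3 side of the antibody tags, 3 of 10 cells, against 0 of 12 on the BC2 side.

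**Figure D5:**
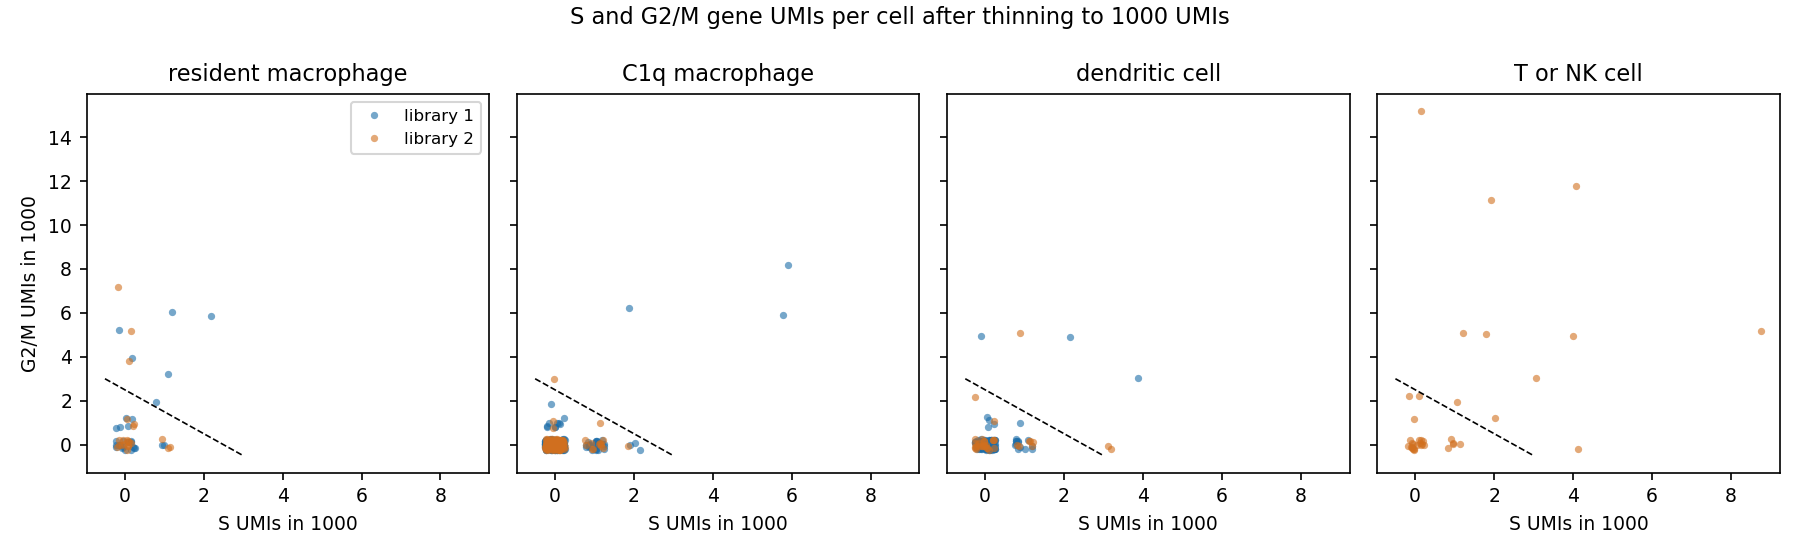
S-phase UMIs (horizontal) and G2/M UMIs (vertical) of single cells after thinning to 1000 UMIs, in 4 classes, with a small random shift so that equal cells can be seen; cells above the dashed line were called cycling. The 9 cycling resident macrophages lie along the vertical axis with 0 to 2 S-phase UMIs, whereas T or NK cells and C1q macrophages also reach 6 S-phase UMIs or more.

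Dendritic cells, marked by Cd209a, H2-DMb2, Flt3 and Zbtb46, had higher levels of S-phase genes, G1 cyclins and genes of several phases than C1q macrophages, and their summed G2/M level was higher in library 2. Of 46 members tested 16 were higher and 0 lower, where 13.4% of all genes tested were higher and 11% lower. An unadjusted p under 0.05 was found for 25 members and for 3283 of all 9331 genes tested. The calls comprised 7 of 13 S-phase members, 2 of 21 G2/M members, 5 of 9 genes of several phases and 2 of 3 G1 cyclins. Their median log2 fold changes were 1.23 for S phase and 0.86 for G2/M, beside -0.01 for all genes.

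Ccnd2, a D-type cyclin that starts the cycle, was the strongest difference. It stood at 662 and 621 CPM in dendritic cells against 15.7 and 78.9 CPM in C1q macrophages (4.41 ± 0.44, edgeR adjusted p = 7.97e-07) and was found in 131 of 137 and 30 of 37 dendritic cells. Ccnd1 was at 83.3 and 123 CPM against 6.64 and 25.2 CPM (3.09 ± 0.31, edgeR adjusted p = 8.08e-07). H2afz was at 2330 and 3426 CPM against 499 and 480 CPM (2.64 ± 0.26, edgeR adjusted p = 5.81e-07). Each of these 3 genes was higher in both dendritic libraries than in either C1q library.

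Among the helicase genes, Mcm7 was at 15.1 and 60.3 CPM against 4.53 and 8.95 CPM (2.31 ± 0.49, edgeR adjusted p = 0.00174). Mcm5 was at 14.5 and 30.2 CPM against 4.83 and 8.39 CPM (1.77 ± 0.42, edgeR adjusted p = 0.00483), and Mcm2, Mcm4 and Mcm6 rose by 2.13, 1.26 and 1.23 on the log2 scale. The nucleotide enzymes Rrm2 (15.7 and 55.3 CPM against 6.94 and 6.16 CPM, 2.13 ± 0.54) and Dut (24.7 and 32.7 CPM against 9.36 and 12.3 CPM, 1.5 ± 0.41) rose with them. Pcna did not differ beyond the spread, at 63.4 and 90.5 CPM against 78.2 and 54.8 CPM. Of the G2/M members only Top2a (18.1 and 65.4 CPM against 12.1 and 5.04 CPM, 1.83 ± 0.46, edgeR adjusted p = 0.00717) and Aurkb (11.5 and 20.1 CPM against 7.25 and 5.04 CPM, 1.24 ± 0.44) were called, the latter at the threshold itself.

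All 13 S-phase members and all 23 G2/M members were higher in the dendritic cells of library 2 than in those of library 1. The 2 richest cells of library 2 held 55.2% of its S-phase and 78.9% of its G2/M UMIs. Without the top 2 cells of each class and library 10 members were called, 9 of them among the 16, and those lost included Rrm2 (0.93, edgeR adjusted p = 0.496), Top2a (1.43, edgeR adjusted p = 0.0835) and Aurkb (0.92, edgeR adjusted p = 0.25). Mcm4 (1.07) and Mcm6 (1.23) missed the threshold with fold changes close to those above. Calls numbered 4 without the library block, 7 with doubled gate thresholds and 5 on the BC2 side alone (Mcm2, Dut, H2afz, Ccnd1 and Ccnd2). T and NK markers were at 0 and 7.54 CPM in dendritic cells, against 5511 CPM in the T or NK class of library 2. The gates themselves limited these markers in dendritic cells, so the levels support nothing.

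Further genes in dendritic cells included Lmnb1, a lamin of the nuclear envelope (91.1 and 156 CPM against 25.4 and 45.9 CPM, 1.92 ± 0.19, edgeR adjusted p = 9.11e-07), and the motor gene Kif23 (2.32 ± 0.66). Rbl1, a pocket protein related to Rb, and the chromatin assembly gene Chaf1a rose by 1.85 and 1.79 on the log2 scale. In all, 9 of 43 further genes tested rose and 1, Cdkn1a, fell, where 13.4% of all genes tested were higher and 11% lower. Of the 6 inhibitors tested, 2 rose beside the fall of Cdkn1a.

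Set directly against each other in an added comparison, resident macrophages and dendritic cells differed in opposite directions for most called genes of the 2 phases. Of 46 members 11 were higher and 9 lower in resident macrophages, where 10.6% of all genes tested were higher and 10.9% lower. The higher genes comprised 9 G2/M members, and the lower ones 4 of 13 S-phase members (Mcm2, Mcm6, Mcm7 and Pcna), Top2a, Ccnd2, Ccne1, H2afz and Tubb5. Ccnb2 was at 216 and 109 CPM against 5.43 and 12.6 CPM (4.43 ± 0.47, edgeR adjusted p = 1.51e-06), and Cdc20 at 45.8 and 48.2 CPM against 1.21 and 7.54 CPM (3.91 ± 0.77, edgeR adjusted p = 0.00133). Kif20a, with 0 and 1 UMIs in dendritic cells, had a pooled ratio of 39.4 (counting interval 6.06 to 1658). Top2a was at 6.54 and 6.29 CPM in resident macrophages against 18.1 and 65.4 CPM (-2.52 ± 0.79, edgeR adjusted p = 0.0298). Pcna was at 19.6 and 35.7 CPM against 63.4 and 90.5 CPM (-1.42 ± 0.38, edgeR adjusted p = 0.0105). The widest gap was that of Ccnd2, with a pooled ratio of 171 (counting interval 58.3 to 828) in favour of dendritic cells, while Ccnd1 (75.2 and 115 CPM against 83.3 and 123 CPM) overlapped between them. Hmgb2 and Tubb5 were called but their levels overlapped between the classes. Without the top 2 cells of each class and library 12 members were called, and Pcna, Top2a, Mcm2, Mcm6, Cenpa, Cks2 and Tubb5 were not.

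C1q macrophages that also carried monocyte genes gave 1 member call against C1q macrophages, while most members leaned lower without a call. Of 46 members 0 were higher and 1 lower, where 0.139% of all genes tested were higher and 0.246% lower. An unadjusted p under 0.05 was found for 15 members and for 592 of all 9331 genes tested. Log2 fold changes were negative for 41 of 46 members and for all 13 S-phase members. The median was -0.91 for all members, beside 0.02 for all genes. The gene called was Stmn1, a regulator of microtubules, at 1.38 and 8.26 CPM against 41.4 and 30.2 CPM (-2.53 ± 0.48, edgeR adjusted p = 0.0244). Tk1 (0 and 0.903 CPM against 9.66 and 3.36 CPM) and Tyms (1.38 and 1.94 CPM against 10.9 and 5.04 CPM) were lower in both libraries without passing the test (edgeR adjusted p = 0.147 and 0.173). The Stmn1 call was lost without the top 2 cells of each class and library.

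Monocytes, marked by Ly6c2, Chil3 and Vcan with less C1q, had lower summed levels of members from every phase in each library. The G1 cyclins summed to 16.6 and 75.6 CPM against 27.2 and 107 CPM, with 0 of 3 tested called. Of 46 members 0 were higher and 12 lower than in C1q macrophages, where 1.82% of all genes tested were higher and 1.97% lower. The 12 were 4 S-phase members (Tk1, Rrm2, Tyms, Mcm6), 5 G2/M members (Ccna2, Cdk1, Birc5, Cdca3, Ube2c) and 3 genes of several phases (2810417H13Rik, Stmn1, Tubb5). Birc5 was at 0.307 and 0.977 CPM against 15.4 and 10.1 CPM (-4.06 ± 0.61, edgeR adjusted p = 0.000573), and Stmn1 at 3.38 and 4.50 CPM against 41.4 and 30.2 CPM (-3.20 ± 0.50, edgeR adjusted p = 0.000899). Ccna2, the cyclin of S and G2, had no UMI among the 3255847 and 5115671 UMIs of the monocytes and was at least 9.85-fold lower, against a floor of 3 UMIs over both libraries. Without the top 2 cells of each class and library edgeR called 0 members, and Ube2c then pointed the other way (1.64, edgeR adjusted p = 0.626). This removal also lowered the mean G2/M level of the C1q macrophages themselves, from 115 to 43.1 CPM. Some fold changes hardly moved, with Mcm6 at -2.12, Rrm2 at -3.52, Tk1 at -3.59 and Tubb5 at -0.83, while those of Birc5 (-2.10) and Stmn1 (-1.43) became smaller. Without the library block edgeR also called 0, while DESeq2 called 6. Of the further genes, Btg1 (1296 and 1094 CPM against 623 and 652 CPM, 0.96 ± 0.25, edgeR adjusted p = 0.0368) and Btg2 (96.4 and 203 CPM against 56.1 and 122 CPM), both known to restrain proliferation, were higher, and Pbk, a mitotic kinase, was lower.

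Neutrophils had lower levels of most S-phase genes than C1q macrophages, and higher levels of Hmgb2 and Cks2. Mcm3, Mcm6 and Tyms had 0 UMIs in both libraries, while Mcm4 was at 14.5 and 11.1 CPM against 8.45 and 7.83 CPM (0.98 ± 0.45, edgeR adjusted p = 0.0718). Of 46 members 2 were higher and 19 lower than in C1q macrophages, where 28% of all genes tested were higher and 30.5% lower. The lower members were 9 of 13 S-phase genes, 3 of 21 G2/M genes, 6 of 9 genes of several phases and Ccnd1. The median log2 fold change was -2.42 for S-phase members, beside -0.19 for all genes. The neutrophils held 206686 and 2167662 UMIs. The helicase gene Mcm3 had 0 UMIs among them against 15.4 and 19.0 CPM in C1q macrophages, and was at least 13.2-fold lower against the floor of 3 UMIs. Tyms (at least 6.98-fold), Mcm6 (at least 6.83-fold), Aurkb (at least 5.12-fold) and Mki67 (at least 4.35-fold) were also at 0 UMIs in both libraries. Tuba1b was at 82.3 and 93.6 CPM against 651 and 639 CPM (-2.20 ± 0.26, edgeR adjusted p = 1.58e-06), and Cks1b at 9.68 and 1.85 CPM against 38.0 and 30.2 CPM (-2.98 ± 0.47, edgeR adjusted p = 4.12e-05).

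Hmgb2 was at 1006 and 1212 CPM in neutrophils against 178 and 167 CPM in C1q macrophages (3.30 ± 0.30, edgeR adjusted p = 6.69e-08), and was found in 67 of 80 and 1087 of 1453 neutrophils. Cks2, a subunit that binds cyclin-dependent kinases, was at 102 and 301 CPM against 19.6 and 30.8 CPM (3.78 ± 0.33, edgeR adjusted p = 4.45e-08), and was found in 14 of 80 and 408 of 1453. The related gene Cks1b moved in the opposite direction, as given above. The neutrophil Hmgb2 level was near the 1379 CPM of the T or NK class of library 2, where 29.7% of cells cycled. Hmgb2 was higher in neutrophils than in the other 5 classes tested in both libraries, whereas Cks2 in library 1 was higher in resident macrophages (124 CPM). Without the top 2 cells of each class and library 14 members were called, 13 of them among the 21, including Hmgb2 (3.48, edgeR adjusted p = 2.48e-09) and Cks2 (4.08, edgeR adjusted p = 7.88e-09). The calls lost were 2810417H13Rik, whose fold change went to -0.23, Stmn1 (-0.09), Tk1 (-1.36), Dut (-1.47), Gins2 (-1.33), Asf1b (-1.64) and Mki67, and Cdca8 was not tested. On the BC2 side alone 5 members were called, Hmgb2 and Cks2 among them.

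Of 43 further genes tested in neutrophils 11 were higher and 10 lower, where 28% of all genes tested were higher and 30.5% lower. Among the inhibitors of proliferation 4 of 6 tested were higher with none lower. Of these, chosen after their values were seen, Btg2 was at 494 and 1112 CPM against 56.1 and 122 CPM (3.77 ± 0.24, edgeR adjusted p = 8.01e-10), and Cdkn1b, which encodes the kinase inhibitor p27, at 77.4 and 209 CPM against 15.1 and 25.7 CPM (3.51 ± 0.25, edgeR adjusted p = 4.16e-09). Lmnb1 had the strongest rise, at 581 and 736 CPM against 25.4 and 45.9 CPM (4.82 ± 0.19, edgeR adjusted p = 5.91e-12). Cdk4, the kinase of D-type cyclins, was at 0 and 4.61 CPM against 107 and 100 CPM (-3.93 ± 0.36, edgeR adjusted p = 7.29e-08). Rfc4, of the clamp loader, had 0 UMIs in both libraries and was at least 12-fold lower, and the primase gene Prim1 at least 3.57-fold.

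T or NK cells were analysed in library 2 alone, since library 1 held 2 of them, so they entered no test. Their 37 cells had 1315 CPM of S-phase genes (exact Poisson interval 1223 to 1412) and 2158 CPM of G2/M genes (2040 to 2281). Top2a was at 268 CPM and Cdk1 at 102 CPM, the genes that stayed low in resident macrophages, and Ccnb2 at 125 CPM lay within the resident range. Of the S-phase members, Dut was at 277 CPM, Pcna at 154 CPM and Rrm2 at 149 CPM, each above every level of that gene in the 6 classes tested. Among the 11 cycling cells, 7 had more G2/M than S UMIs, 3 had more S UMIs and 1 had equal numbers. The 24 cells that passed both the T or NK and the C1q gate, of which 6 cycled (25%, 9.77 to 46.7%), had a median of 30082.5 UMIs and 484 CPM of S-phase and 1197 CPM of G2/M genes. T or NK cells had a median of 9852 UMIs and C1q macrophages of this library 12049, and whether these cells are droplets of 2 cells was not tested.

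Some members overlap other annotated genes, among them Cdc20 with Elovl1, Mki67 with Gm45240 and Ccnd2 with Gm43126, on the opposite strand. Whether the counting used strand is not given in the sources used here, and the part of overlapping genes in these UMIs was not tested. Of the lead genes, Ccnb2 (chr9:70407692-70421547, mm10, minus strand), Birc5 (chr11:117849251-117855743, plus strand), Cenpa (chr5:30666777-30674830, plus strand) and Hmgb2 (chr8:57511907-57515999, plus strand) overlap no other annotated gene.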

How the data were processed

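Both libraries were made with a 10x 3′ v2 kit, per the labels' protocols. The deposited values are UMI counts per gene and cell barcode, made by the authors with Cell Ranger 3.0.1 on mm10, per the submitters' processing notes; the annotation release is not given in the sources used here. The members and lists were chosen with earlier results of these data known, and the gate thresholds after marker counts, but no cell cycle counts, were seen. Kept were cells of at least 300 genes and at most 10% mitochondrial UMIs that were not marked as doublets by a nearest-neighbour search that ignored the members. Cells were gated by summed marker UMIs. Cells passing no gate or more than 1, and classes under 20 cells in a library, entered no test.

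Counts were summed per class and library (6 classes, 2 libraries) and fitted in edgeR 4.0.16 (R 4.3.3) with TMM, filterByExpr, the library as a block and quasi-likelihood tests, adjusted by Benjamini-Hochberg over 9331 genes; SE is the absolute log2 fold change over the root of F. The block was used because every class was drawn from the same 2 libraries. The fit was tested on simulated counts. Shares have exact Clopper-Pearson and levels exact Poisson 95% intervals, computed in Python 3.11.15 with scipy 1.17.1. Where a class had 0 UMIs, a bound against 3 UMIs over both libraries is given, and for 1 to 3 UMIs a ratio with its counting interval. Named were, per comparison, up to 10 called members of largest change in each direction, the 4 members of highest mean per role, and up to 4 further genes. Alternatives were RLE factors, no count filter, no block, DESeq2 1.42.0, no doublet removal, doubled gates, the BC2 side of library 2, other thinning depths and cycling limits, and each library left out. Leaving out the 2 cells of most S and G2/M UMIs, and the comparison of resident macrophages with dendritic cells, were added after seeing the data. Those 2 cells were picked by the UMIs under test and weigh more in small classes, so this setting cannot show robustness.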

Additional observations from a re-analysis of the deposited data

Results flagged for a closer look

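Library 2 held a signal outside the gene counts used here: 2 antibody tags, BC2 with a median of 1060.0 UMIs per cell and BC3 with a median of 1789.0 UMIs per cell, well above the limit that a count of 0 allows. The labels do not say what the tags mark. By the larger tag, 134 of 137 C1q macrophages lay on the BC2 side and 1428 of 1453 neutrophils on the BC3 side, while resident macrophages divided into 12 and 10 cells.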

How the results depend on the processing

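Without the replicate block for the library, member calls numbered 7 for resident against C1q macrophages, 0 for C1q macrophages with monocyte genes, 0 for monocytes, 4 for dendritic cells and 9 for resident macrophages against dendritic cells. Without the 2 richest cells of each class and library the counts were 14, 0, 0, 10 and 12 in that order and 14 for neutrophils, Ube2c in monocytes turned to 1.64, and mean summed levels were 420 CPM (G2/M, resident), 133 CPM (S, C1q macrophages) and 43.1 CPM (G2/M, C1q macrophages). With no count filter, calls were 8 for C1q macrophages with monocyte genes and 25 for monocytes. DESeq2 gave 6 for monocytes and 13 for resident macrophages against dendritic cells. Doubled gates gave 0 for C1q macrophages with monocyte genes and 7 for dendritic cells. The BC2 side gave 0 and 5 for the same classes and 5 for neutrophils, and could not be fitted for resident macrophages, with 12 cells. In the comparison with dendritic cells Hmgb2 ranged from -0.02 (without library 1) to 1.96 (without library 2) and Tubb5 from -1.36 (without library 1) to 0.11 (without library 2); with 1 library left no test was possible. Cycling shares without thinning were 55.2% and 81.8% (resident), 31% and 30.7% (C1q macrophages), 29.2% and 51.4% (dendritic), 78.4% (T or NK) and 21.1% and 14.7% (all cells). At 2000 UMIs they were 51.4% (T or NK) and 2.53% and 3.89% (all), and at 500 UMIs 0% (C1q macrophages, library 2) and 0.539% (all, library 2). A limit of 2 UMIs gave 2.44% and 2.07% of all cells, and a limit of 5 gave 0% of C1q macrophages and 0.635% of all cells in library 2. The BC2 side gave 0% of resident macrophages and 1.75% of all cells. Bases before the start site alone gave CHR in 38.9% of G2/M windows. The cause of these changes was not tested. Resident macrophages numbered 29 and 22 cells, so their values rest on few cells.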

Other observations

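Cycling cells of different classes carried different shares of the further replication genes, which did not enter the cycling call. In dendritic cells these genes reached 1266 CPM in the 3 cycling cells against 172 CPM in the other cells of library 1, and 1198 against 189 CPM in library 2. The 3 cycling C1q macrophages of library 1 had 802 against 131 CPM, and the 11 cycling T or NK cells 1096 against 520 CPM. Further mitosis genes were at 1230 against 150 CPM and 1363 against 290 CPM in dendritic cells, 2482 against 77.9 CPM in C1q macrophages and 2271 against 439 CPM in T or NK cells. Each value is a sum over the cells named, with no test.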
